A study of Orbicella faveolata with 48 samples.

Results

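Coral features whose level followed the loss of algal RNA under heat were examined in Orbicella faveolata, the mountainous star coral. For each library the algal content R was the total of the symbiont table divided by the total of the coral table, on the log2 scale. The features were selected on measured values: they were kept if their mean level was at least 2 CPM (counts scaled to a common coral total), if their CPM had a Spearman rho with R of -0.7 or less over the 24 heated libraries, and if the absolute rho over the 24 control libraries was under 0.3. Of 87440 coral features, 26353 reached the mean level and 30 met both conditions. The rule's upper limit of 200 features was not reached. Since the rule used these correlations, they describe the 30 features and are not findings.

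Coral fragments from inshore and from offshore sites in the Florida Keys were held at 30 °C (controls) or, after a gradual rise, at 33 °C for 5 days or 32 °C for 31 days. Each of the 4 combinations of arm and day held 9 inshore and 3 offshore libraries. Inshore fragments carried the genotype labels In1, In2, In3 and In4 and offshore ones O1, O2 and O5, each with a fragment tag such as A4 in its title. An offshore label stood for 1 fragment per arm and day, and some tags carried another label at the other day, as C2 did with O2 at 5 days and O1 at 31 days. The labels do not say what a tag stands for. Temperature and duration changed together between the days. Coral totals ran from 4726663 to 6686881 estimated counts per library and algal totals from 67428 to 1360639.

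Reef-building corals house photosynthetic dinoflagellate algae inside cells of their gastrodermis, the inner tissue layer, and draw much of their energy from the sugars and lipids that the algae release. Warm water can break this partnership, and the algae are then expelled or digested, which whitens the coral and is called bleaching. Colonies differ in how readily they bleach, with the host genotype and with the kind of algae they carry. The files do not pair feature identifiers with gene names, so no product or role is given for any feature, and the tissue label could not be checked against marker genes. No sequence is shown, because the files used here hold none.

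R was lower under heat in most fragments, and by most in those labelled O1 at both days and O2 at 5 days. R ran from -2.60 to -1.88 in inshore controls of 5 days and from -3.75 to -2.34 in the heated inshore fragments of that day. In the 3 offshore controls of 5 days it lay between -2.60 and -2.10. The heated offshore fragments stood at -6.63 (C1), -6.51 (C2) and -3.43 (C5). At 31 days the inshore range was -2.84 to -2.05 in controls and -5.19 to -2.81 under heat. The offshore range at 31 days was -2.99 to -2.39 in controls and -6.47 to -4.42 under heat. R was lower in the heated fragment in 22 of the 23 pairs that shared a tag and a day. The exception was A6 of 5 days, labelled In1, with a change of 0.02. R measures RNA, so fewer algal cells and less RNA per algal cell cannot be told apart.

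**Figure D1:**
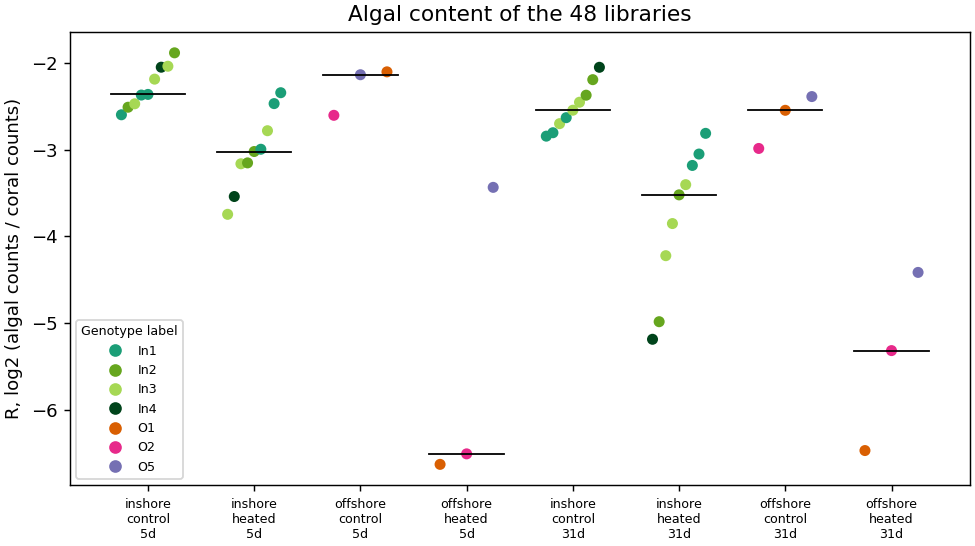
R (algal over coral total, log2) in each of the 48 libraries (points, coloured by genotype label), with the median of each group of habitat, arm and day as a line. The heated offshore fragments labelled O1 and O2 of 5 days and O1 of 31 days lie lowest, at -6.63, -6.51 and -6.47, and the heated In1 fragments lie between -3.18 and -2.34.

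The spread of R differed greatly between the arms. It covered -6.63 to -2.34 in heated libraries and -2.99 to -1.88 in controls, so the absence of a correlation in controls was judged over a much narrower range. In heated libraries the heated rho of the 30 features ran from -0.80 to -0.70, with a median of -0.72. In controls their rho with R ran from -0.23 to 0.29. Just inside the heated threshold stood features with rho of -0.7017 and -0.7035, and just outside it features with -0.6991 and -0.6965. Another 6 features passed the heated threshold but had a control rho of 0.33 to 0.38. In the opposite direction 84 features reached a heated rho of 0.7 or more, and 65 of them also met the condition on controls.

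Levels of the 30 features were mostly low. Their mean CPM ran from 2.03 to 379, with a median of 6.12, and 22 of 30 were under 10 CPM. The feature with the fewest counts had a mean of 11.8 estimated counts per library. Of the 30, 4 were listed at 0 in at least 1 library, and 1 was at 0 in 9 libraries. Every feature belonged to a separate assembly gene, and the coral table holds 1 feature for each assembly gene, so isoforms could not be compared. The assembly components of the 30 features contained 10 other features of 2 CPM or more, whose heated rho had a median of -0.11 and ran from -0.51 to 0.71. Of these 10, 7 were below 0.

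The 30 features varied together in both arms. Among heated libraries the median Spearman rho between 2 of these features was 0.60, and all 435 pairs were above 0, which the shared relation to R partly builds in. Among control libraries, where the rule asked for no relation to R, the median was 0.54, and 433 of 435 pairs were above 0. Control fragments carry the same labels as the heated ones that entered the rule, so their co-variation is not independent of it. The first principal component held 59.3% of the standardised spread of the 30 features in heated libraries and 56.1% in controls, against 26.6% and 24.6% over all features of 2 CPM or more. Most of their spread lay between combinations of genotype label and day, with a median of 90.3% in heated libraries and 90.6% in controls. The same share over all features was 84.2% and 81.8%. These shares include the difference between the days. In4 and the offshore labels had 1 library per arm and day, and so no spread within them. The median SD on the log2(CPM + 1) scale was 0.73 in controls for the 30 features and 0.47 for all.

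**Figure D2:**
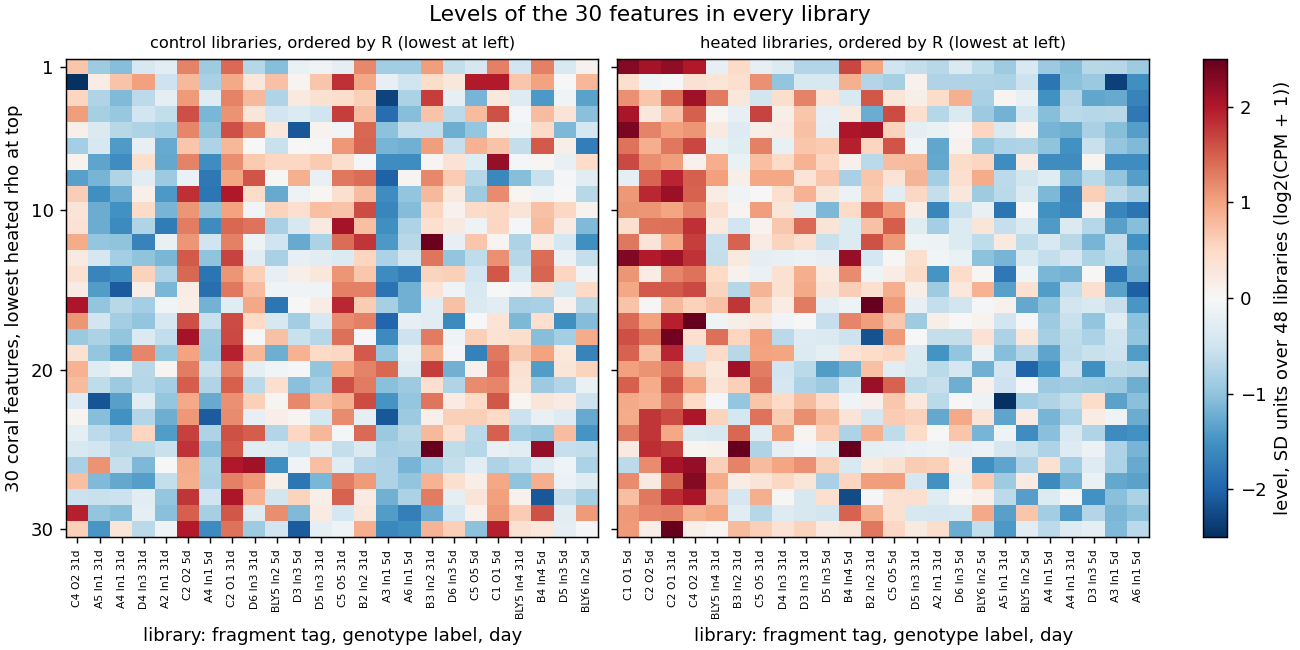
Level of each of the 30 features (rows, lowest heated rho at the top) in the 24 control and 24 heated libraries (columns, ordered by R from the lowest at left), in SD units of log2(CPM + 1) over all 48 libraries. Libraries labelled In1 are mostly blue (low) and those labelled O1 mostly red (high) in both panels. In the heated panel these labels also stand at opposite ends of the order of R.

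Within a day, which label a fragment carried went with the level of the 30 features at both temperatures. Labels In2 and In4 changed places between the days, when they stood for other tags. As a summary, the log2(CPM + 1) of each feature was put in SD units over the 48 libraries and averaged over the 30. In1 was low throughout: its 3 control fragments of 5 days lay between -1.25 and -0.88 SD and the 3 heated ones between -1.26 and -1.01. At 31 days the In1 controls lay between -0.97 and -0.77 SD and the heated fragments between -0.91 and -0.60. The In1 ranges of the arms overlapped at both days.

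O1 was high throughout. Its level was 0.78 SD in the control and 1.13 SD in the heated fragment of 5 days, and 1.35 and 1.49 SD at 31 days. O2 stood at 1.22 SD in the control and 1.06 SD in the heated fragment of 5 days, so there the control was the higher. At 31 days O2 (C4) went from 0.21 to 1.20 SD, but between these libraries all features of 2 CPM or more shifted by a median log2 of 0.70. O5 went from -0.08 to 0.54 SD at 5 days and from 0.80 to 0.52 SD at 31 days. Offshore changes therefore went both ways, although R was lower under heat in each of these pairs.

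The remaining inshore labels stood between these ends. In3 averaged -0.19 SD in controls and -0.24 SD under heat at 5 days, and 0.02 and 0.20 SD at 31 days. In2 averaged -0.37 and -0.30 SD at 5 days, and 0.78 and 0.44 SD at 31 days, when the label stood for other tags. In4 went from 0.23 to 0.34 SD at 5 days (B4) and from -0.20 to 0.36 SD at 31 days (BLY5, which carried In2 at 5 days). Over both days, BLY5 and BLY6 controls lay between -0.46 and -0.20 SD, and B2, B3 and B4 controls between 0.23 and 0.84 SD. In4 was higher under heat at both days, in different tags, and In2 and In3 at 1 day each. The heated In2 fragments of 31 days (B2 and B3) were among libraries in which the median over all features shifted down.

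Control fragments were then set against the algal content that their heated partners reached. The CPM of the 30 features in a control fragment had a median Spearman rho of -0.61 with R of the heated fragment of the same tag and day (23 pairs), and rho was below 0 for 30 of 30 features. Over all features of 2 CPM or more the median was 0.03 and the 5th percentile -0.44. For the heated fragments of the same 23 pairs the median was -0.74. At 5 days alone the control value was -0.64 (12 pairs) and at 31 days alone -0.60 (11 pairs). Control fragments thus tended to hold more of these transcripts where the heated fragment of the same tag ended with less algal RNA. The heated CPM of the 30 features had a median rho of 0.66 with the control CPM of the partner, against 0.31 over all features. These are descriptions: the pairs share 7 genotype labels, and the heated partners entered the rule.

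**Figure D3:**
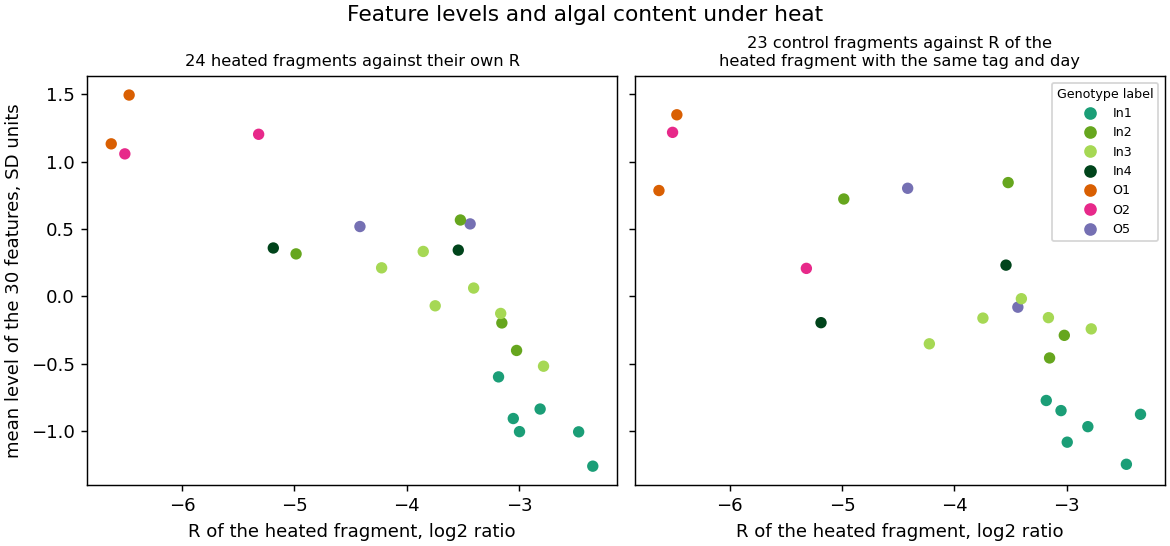
Mean level of the 30 features in SD units, in 24 heated fragments against their own R (left) and in 23 control fragments against R of the heated fragment with the same tag and day (right), coloured by genotype label. In both panels O1 lies at the upper left and In1 at the lower right, with In1 controls between -1.25 and -0.77 SD.

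This order rested largely on the ends of the series of labels, in subsets chosen after seeing the data. Among the 17 inshore pairs the median rho of control CPM with R of the heated partner was -0.45, without In1 it was -0.47 (17 pairs), and without both In1 and the offshore pairs it was -0.16 (11 pairs), with 22 of 30 features below 0.

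The change between the fragments of a pair went less with the change of R. Over the 23 pairs, the log2 change in a feature, heated minus control, had a median rho of -0.16 with the change of R, and single features ran from -0.53 to 0.36. Of the 30 features 21 were below 0 and 0 reached -0.7. Over all features the median was 0.02 and the 5th percentile -0.36. The heated CPM and heated R that the rule used enter both changes, so values below 0 are not independent of the rule. In C1 of 5 days, where R fell by 4.53, 20 of the 30 features were higher in the heated fragment, with a median log2 change of 0.23. In C2 of 5 days R fell by 3.90, 12 features were higher and 18 lower, and the median change was -0.06. In C2 of 31 days R fell by 3.92, 19 features were higher, and the median was 0.10. In BLY5 of 31 days R changed by -3.14, 25 features were higher, and the median was 0.36. In C5 the median was 0.51 at 5 days (R change -1.30, 27 higher) and -0.21 at 31 days (R change -2.03, 11 higher). The 3 pairs with a large median shift over all features were C4 (0.70), B3 (-0.57) and B2 (-0.39) of 31 days, where the medians of the 30 were 0.68, -0.48 and -0.17. Without them the median rho with the change of R was -0.19 (20 pairs). Among heated libraries centred on the mean of their label and day (16 libraries of labels with several fragments), the median rho with R was -0.09.

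**Figure D4:**
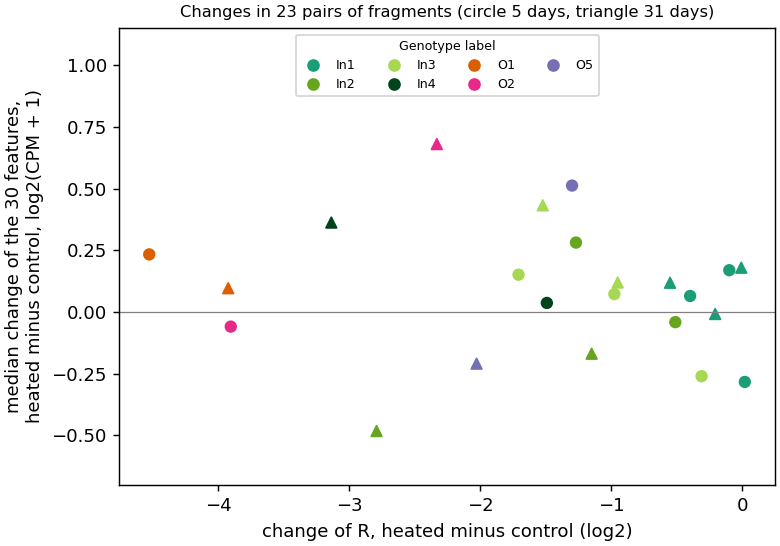
Median log2 change of the 30 features, heated minus control, against the change of R in the 23 pairs of fragments that share a tag and a day, coloured by genotype label, with circles for 5 days and triangles for 31 days. Pairs with the deepest falls of R lie at 0.23 (C1, 5 days), -0.06 (C2, 5 days) and 0.10 (C2, 31 days), and the next deepest at 0.36 (BLY5, 31 days).

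The working description of these features, transcripts that rise with algal loss, was followed only weakly pair by pair (median rho -0.16, against 0.02 over all features). The heated values of these pairs also chose the features, so the -0.16 is not independent of the rule. Most of the features lie under 10 CPM and each side of a pair is 1 library. The pairs therefore cannot decide whether the description holds, and it was not tested. The features are called here the 30 R-correlated features. Some of them were higher under heat in each of the pairs labelled O1 or O2, without a test. In the 4 pairs labelled O1 or O2, 8 of 30 features were higher under heat in each pair, against 14.1% of all features. The rule selected high values in these heated fragments, which hold some of the lowest R, so nothing is read from this count. Without C4 of 31 days, 8 were higher in each of the other 3 pairs and 3 were lower, against 17.6% of all features higher. The feature with the lowest heated rho (-0.80) was among the 8. It stood at 6.58, 6.47 and 0.76 CPM in the offshore controls of 5 days (C1, C2 and C5) and at 17.5, 14.5 and 0.65 CPM in the heated fragments. At 31 days it stood at 7.60, 3.63 and 1.09 CPM in controls (C2, C4 and C5) and at 16.2, 13.3 and 1.11 CPM under heat. In inshore fragments its highest value in any group was 9.83 CPM, and the group medians lay between 0.37 and 0.78 CPM. Some inshore controls were as high as offshore ones, with 6.56 CPM in B4 of 5 days and 6.18 (B2) and 5.27 CPM (B3) at 31 days. In the heated fragments B4 held 9.83 CPM, B2 4.90 CPM and B3 2.80 CPM. The feature was not called in the heat test over all libraries (log2 change 0.27, SE 0.24, edgeR adjusted p = 0.509).

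Whether the 30 features differed on average between heated and control fragments was tested over all 48 libraries, a contrast that the rule did not use. Of the 30 features, all tested, 3 were higher and 1 was lower under heat (edgeR quasi-likelihood test with Benjamini-Hochberg adjustment over 38483 features, adjusted p under 0.05), or 13.3%. Over all tested features 8.21% were called higher and 8.02% lower, 16.2% in either direction, so the share among the 30 was not above the background. The log2 changes of the 30 ran from -0.30 to 0.45, with a median of 0.19, and 20 were positive. The median over all features was 0.03. The CPM ranges of heated and control libraries overlapped for 30 of 30 features.

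**Figure D5:**
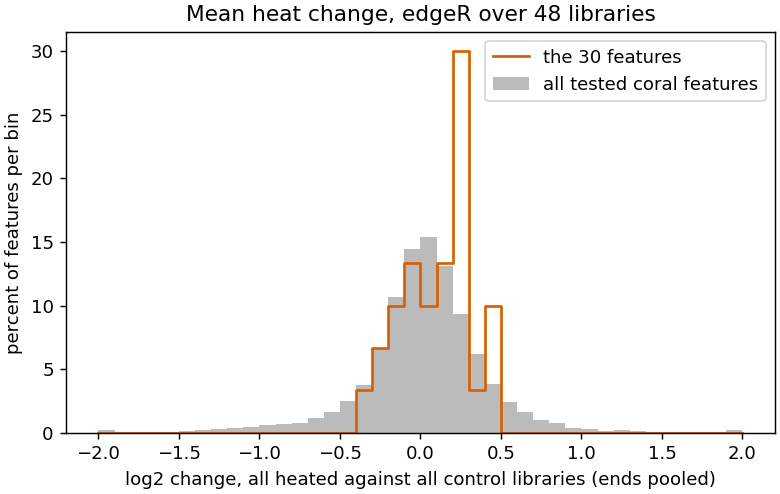
Distribution of the log2 change between all heated and all control libraries (edgeR, genotype label within day as a term), as percent of features per bin, for all 38483 tested coral features (grey bars) and for the 30 features (line). The 30 lie between -0.30 and 0.45, with a median of 0.19 against 0.03 for all features.

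The higher level with the smallest p was that of OFAVBQ_DN222747_c0_g1_i2, a feature with no name in the files. Its lowest, median and highest values were 46.3, 69.9 and 94.4 CPM in the 24 controls and 55.1, 80.6 and 113 CPM in the 24 heated libraries. Both ranges overlapped over most of their length, and the log2 change was 0.19 (SE 0.04, edgeR adjusted p = 0.00185). It missed the threshold with day and habitat in place of the label (edgeR adjusted p = 0.0738) and without In3 (edgeR adjusted p = 0.0715). It also missed at 5 days alone (edgeR adjusted p = 0.0675) and at 31 days alone (edgeR adjusted p = 0.173). In the offshore controls of 5 days it stood at 81.5 (C1), 92.4 (C2) and 83.3 CPM (C5), above the inshore control median of 68.4 CPM. The heated offshore fragments stood at 89.4, 107 and 84.0 CPM in the same order. At 31 days the offshore controls held 94.4 (C2), 74.4 (C4) and 94.2 CPM (C5), and the heated fragments 104, 113 and 97.9 CPM. Inshore it went from a median of 68.4 CPM in controls to 76.7 CPM under heat at 5 days, and from 65.2 to 66.9 CPM at 31 days. The inshore libraries alone gave a log2 change of 0.22 (SE 0.05, edgeR adjusted p = 0.00201). The feature was higher in 6 of 6 offshore pairs, C4 with its general shift among them. The rule selected high values in heated fragments of low R, most of the heated offshore ones among them, so nothing is read from this count. Of the offshore controls of 5 days, C1 lay near the top of the inshore control range of that day (46.3 to 83.1 CPM), and C2 and C5 lay above it.

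The other feature named as higher was OFAVBQ_DN222885_c0_g1_i3. It ran from 11.1 to 65.6 CPM in controls (median 32.2) and from 11.3 to 77.9 CPM under heat (median 40.9), and the log2 change was 0.27 (SE 0.09, edgeR adjusted p = 0.0254). Offshore at 5 days it went from 33.7 to 55.1 CPM in C1, from 36.9 to 73.2 CPM in C2 and from 27.4 to 53.5 CPM in C5. At 31 days it went from 65.6 to 73.3 CPM in C2 and from 37.2 to 77.9 CPM in C4, but from 63.8 to 51.7 CPM in C5. In C4 the median over all features also shifted up. The rule selected high values in heated fragments of low R, so these offshore changes are descriptions. Inshore medians were 31.5 CPM in controls and 39.5 CPM under heat at 5 days, and 32.4 and 36.3 CPM at 31 days. This call missed the threshold in 14 of the 29 alternatives run, among them the inshore libraries alone (log2 change 0.20, edgeR adjusted p = 0.16). Another feature was higher by 0.21 (SE 0.07, edgeR adjusted p = 0.0362). With tags as a block it was not called (edgeR adjusted p = 0.0849). A different feature was called with the block, with a log2 change of 0.45 (SE 0.10, edgeR adjusted p = 0.00363), and at 5 days alone (0.44, SE 0.15, edgeR adjusted p = 0.0423). Over all libraries without the block it was not called (0.44, SE 0.24, edgeR adjusted p = 0.225).

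Although chosen for high values where algal RNA was low, OFAVBQ_DN199437_c2_g4_i1 was lower under heat on average. It ran from 60.8 to 146 CPM in controls (median 113) and from 62.5 to 124 CPM under heat (median 87.5), a log2 change of -0.26 (SE 0.06, edgeR adjusted p = 0.00117). At 5 days alone the change was -0.36 (edgeR adjusted p = 0.000542), and at 31 days alone it was -0.17 and did not pass (edgeR adjusted p = 0.419). Offshore at 5 days it fell from 146 to 108 CPM in C1, from 116 to 97.6 CPM in C2 and from 146 to 84.2 CPM in C5. At 31 days it went from 119 to 98.7 CPM in C2, from 60.8 to 107 CPM in C4 and from 142 to 124 CPM in C5. The C4 control of 31 days, from which all features shifted up by a median log2 of 0.70, held the lowest value of all 48. The inshore medians were 100 CPM in controls and 85.4 CPM under heat at 5 days, and 113 and 85.8 CPM at 31 days. Its heated rho with R was -0.78, so within the heated arm the fragments with less algal RNA held more of it, while 5 of 6 offshore pairs had less of it under heat than at 30 °C.

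OFAVBQ_DN221450_c0_g1_i5, the feature with the next smallest p for a lower level, did not pass the test. Its log2 change was -0.12 (SE 0.06, edgeR adjusted p = 0.211). It ran from 291 to 508 CPM in controls (median 379) and from 261 to 542 CPM under heat (median 343). Offshore fragments held 380 to 480 CPM in controls of 5 days and 355 to 456 CPM under heat, against inshore medians of 369 and 301 CPM. At 5 days alone (log2 change -0.24, edgeR adjusted p = 0.0394) and without the 3 libraries described next (-0.16, edgeR adjusted p = 0.024) it did pass.

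By habitat and day, the median log2 heat change of the 30 features was 0.01 inshore and 0.22 offshore at 5 days, and 0.21 inshore and -0.03 offshore at 31 days. The corresponding medians over all features were 0.02, 0.03, 0.04 and 0.03. At 5 days 16 of the 30 were positive inshore and 20 offshore, and at 31 days 23 inshore and 13 offshore. These 4 values were not tested, because differences among heated libraries belong to what the rule used.

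At 31 days 3 libraries (the C4 control and the heated B2 and B3 fragments) shared 106 features that reached 5 CPM in all 3 and whose lowest value there was 4 times or more the highest value elsewhere. None of the 30 R-correlated features was among the 106 (0 of 30). The 106 were found among 87440 coral features, so small a share that nothing is read from this. Leaving these libraries out of the heat test gave 3 higher and 2 lower of the 30, where 9.04% of all features were higher and 9.59% lower. Leaving them out of the rule gave 88 features, with 29 of the 30 among them. Within the heated libraries of 5 days the 30 had a median rho with R of -0.79, within those of 31 days -0.66, and within the inshore heated libraries -0.66. The choice of the 30 also moved with other settings. With CPM on TMM-scaled totals 33 features met the rule, 22 of them shared, and with Pearson's correlation of log2(CPM + 1) 29 met it, 7 of them shared. Without the heated C1 fragment of 5 days 36 met it, 16 of them shared.

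The habitats were compared in control fragments alone, to see whether the features differed between reefs without heat. In controls of 5 days the 30 features tended to be higher offshore: the log2 difference, offshore minus inshore, was positive for 27 of the 29 tested, with a median of 0.69. In controls of 31 days it was positive for 29 of 30, with a median of 0.85. Over all tested features the medians were 0.00 and 0.02. The control fragments share tags with the heated ones that entered the rule, so this direction is not independent of it.

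No single feature of the 30 was called between the habitats at either day (0 of 29 and 0 of 30). Counts were summed per genotype label, 4 inshore against 3 offshore, and over all features edgeR called 0% at 5 days and 0.0036% at 31 days. At an unadjusted p under 0.05 there were 8 of 29 (27.6%) at 5 days, against 5.73% of all tested features, and 7 of 30 (23.3%) at 31 days, against 6.87%. These shares are not independent of the rule, since heated fragments with the same labels entered it, so nothing is read from them. DESeq2 called 1 of the 30 higher offshore at 5 days and 0 at 31 days. In simulated counts the edgeR test recovered 2% of 2-fold differences at 5 days and 0% at 31 days, and 74% and 57% of 16-fold ones. Differences of about the median size seen here were therefore rarely detectable one by one. Sizes between 2-fold and 16-fold were not simulated, and the difference of a single feature reached a log2 of 3.36 at 5 days.

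Offshore controls were also set against In1 controls, the label with the smallest fall of R at both days. At 5 days the 3 offshore controls averaged higher than the 3 In1 controls for 30 of 30 features, with a median log2 difference of 1.37, and for 24 the CPM values did not overlap, as for 9.08% of all features of 2 CPM or more. At 31 days the median difference was 1.35, 29 of 30 were higher and 22 did not overlap, against 6.19% of all features. The heated fragments with these labels entered the rule, so the direction is not independent of it. Under heat the median differences were 1.46 and 1.47. Over all features the offshore controls were higher than In1 for 46.9% at 5 days and 34.2% at 31 days, when the median difference over all features was -0.21. The comparison was chosen after the values were seen and was not tested.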

How the data were processed

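Per the labels' protocols, coral tissue gave total RNA, sequenced as stranded mRNA libraries. The authors deposited estimated counts per assembled transcript in a coral table and a symbiont table, both named for kallisto. The submitters' processing notes name Trimmomatic 0.36 and RSEM with no role, and the reference is not given in the sources used here. Transcripts that nearly match each other may share reads in such estimates. All columns were mapped by a name equal to that in the labels, except a coral column headed BL6, read as BLY6 of the 5-day controls. Estimated counts (23.6% of coral values not whole) were rounded for tests. CPM was taken on coral totals.

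The heat test used edgeR 4.0.16 in R 4.3.3: TMM, filterByExpr on the 8 groups, genotype label within day and 1 heat term, adjusted p under 0.05. Controls were compared between habitats on counts summed per label. SE is the log2 change over the square root of F. In simulated counts the heat test recovered 70% of 2-fold changes. DESeq2 1.42.0 and other settings were alternatives. Tags were taken to pair the arms. After subtracting group means, libraries of 1 tag and day correlated at 0.36 to 0.77 in 23 of 23 pairs. Each pair also shared its genotype label, and libraries of 1 label with different tags were not compared. The correlation therefore cannot show that a tag pairs fragments beyond their label. Replicate libraries differed by more than counting noise (lowest chi-square per degree of freedom 3.84 over 156 pairs). The labels do not say whether tags of 1 label are separate colonies, so p-values of the heat test measure the spread between fragments. Those between habitats, on counts summed per label, measure the spread between genotype labels.

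The 30 features, the lists and the tests were chosen with earlier results of these data known. Identifiers were named by rule (the 2 smallest p in each direction of the heat test), besides the feature with the lowest rho, which is not named. Lists by gene product could not be applied. Comparisons with levels in the heated partner and with single labels were added after the values were seen.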

Additional observations from a re-analysis of the deposited data

Results flagged for a closer look

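In groups of 9 inshore libraries, 3 values stood apart from the other 8 (Dixon's test at the 95% level, which flags about 1 in 20 groups by chance). The feature with the lowest heated rho stood at 6.56 CPM in the B4 control and at 9.83 CPM in the heated B4 fragment of 5 days, where the group medians were 0.51 and 0.37 CPM. B4 was the single fragment labelled In4 in each arm. OFAVBQ_DN221450_c0_g1_i5 stood at 542 CPM in the heated B3 fragment of 31 days, 1 of the 3 libraries with 106 shared high features, against a group median of 343 CPM.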

How the results depend on the processing

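In the heat test 3 of the 30 features were higher and 1 lower. With library totals or with no filter on low counts 1 was higher. With day and habitat in place of the label 0 were higher (1672 of all features higher and 2035 lower). Without the 3 surging libraries of 31 days, and at 5 days alone (2765 of all features higher and 2780 lower), 2 were lower. At 31 days alone 0 were higher and 0 lower (1 of 30 at an unadjusted p under 0.05; 372 of all features higher and 446 lower). Leaving out an offshore library or a label in turn gave 0 to 4 higher and 1 lower, and 1207 to 3559 higher and 1575 to 3713 lower of all features. The lowest counts came without In3. With tags as a replicate block 3 were higher and 1 lower, and 3 of the 4 calls were shared. With RLE size factors and with DESeq2 the counts were again 3 and 1. The median log2 change of the 30, 0.19, was 0.12 to 0.19 when an offshore library or a label was left out, and 0.07 at 5 days alone.

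Between habitats in controls of 5 days edgeR called 0 features, with no filter 2 higher and 1 lower, with single libraries 10 and 4, with DESeq2 47 and 113 (1 of the 30), and without a label 0 to 2 and 0 to 1. At 31 days it called 1 feature, with DESeq2 41 and 50, with single libraries 85 and 13, and without a label 0 to 1 and 0 to 2. The count of the 30 stayed at 0 with any 1 label left out at both days.

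The rule found 17 features with a minimum of 5 CPM, 88 without the 3 surging libraries, and 20 to 43 without 1 offshore library. The median rho of control CPM with R of the heated partner was -0.45 in inshore pairs and -0.16 without In1 and the offshore pairs. That of heated with control CPM was 0.47 without In1, against 0.29 over all features. Without both In1 and the offshore pairs it was 0.34, against 0.28 over all features. These last alternatives were chosen after seeing the data. The cause of these shifts was not tested. Most of the 30 features lie under 10 CPM, which limits the precision of their changes. The labels mention no molecular identifiers, so counting error is a lower limit.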

Other observations

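In the opposite direction, the 65 features with a heated rho of 0.7 or more and no relation to R in controls had a median rho of 0.49 between control CPM and R of the heated partner. Their log2 change had a median rho of 0.36 with the change of R over the 23 pairs, where the 30 R-correlated features had -0.16. The heated values of these pairs chose both sets, and the difference between the sets was not tested.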
